A study of Mus musculus with 6 samples.

Results

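Lamins, the lamin B receptor and the high mobility group (HMG) proteins are the 10 genes described here: Lbr, Lmna, Lmnb1, Lmnb2, Hmgb1, Hmgb2, Hmgb3, Hmgn2, Hmga1 and Hmga2. They were taken by name, as the rows of the count table with exactly these symbols, and all 10 were found among 24062 genes. The choice of names was made with earlier results of these data known. The counts came from RNA-seq of whole mouse retinae taken at postnatal day 21. The strain is C57BL/6 by the sample labels and C57BL/6N by the study's methods. Of the 6 retinae, 3 were Rb1/p107 DKO (Chx10-Cre Rb1 lox/lox p107-/-) and 3 were Rb1/p107/Hells TKO, which carried Hells lox/lox as well. Both groups thus lacked p107 in every cell and lost Rb1 wherever the Cre was active, and the groups differed in Hells, which encodes a chromatin remodeling helicase. Chx10-Cre acts in early retinal progenitors and is mosaic, so each retina also held cells that had not recombined. No retina with intact Rb1 and p107 was among the 6. The libraries held between 10343907 and 14203098 counts, and 16904 genes with a summed count of at least 10 were tested, the 10 genes among them.

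In the GENCODE M21 annotation (GRCm38), Lbr lies at chr1:181815335-181843046, Lmna at chr3:88480147-88509956 and Lmnb2 at chr10:80901203-80918245, all on the minus strand, and Lmnb1 lies on chromosome 18. Hmgb1 (chr5:149046702-149184489, minus strand), Hmgb2 (chr8:57511907-57515999, plus strand) and Hmgb3 (chrX:71555918-71560676, plus strand) are on separate chromosomes, as are Hmgn2 (chr4:133964738-133968650, minus strand), Hmga1 (chr17:27556497-27563674, plus strand) and Hmga2 (chr10:120361275-120476469, minus strand). The counts were taken over whole genes and do not separate exons or UTRs.

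The nuclear lamina is a meshwork of A-type lamins (from Lmna) and B-type lamins (from Lmnb1 and Lmnb2) under the inner nuclear membrane, and LBR, a protein of that membrane with sterol reductase activity, binds B-type lamins and heterochromatin. LBR and A-type lamins are the known tethers that hold heterochromatin at the nuclear edge, and mature mouse rods lack both and carry their heterochromatin in the centre of the nucleus. HMGB proteins bend DNA through HMG boxes, HMGN proteins bind nucleosomes, and HMGA proteins bind AT-rich DNA through AT hooks. Hmgb2, Hmgb3, Hmga2 and Lmnb1 are known for high expression in proliferating or embryonic cells, and Hmgb1, Hmgn2 and Lmnb2 for expression in most cells.

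The libraries were first read against their labels. The 3 TKO retinae, in the order of their replicate numbers, had 60.8, 68.4 and 83.4 normalized counts of Hells, and the 3 DKO retinae 678, 523 and 395 (counts scaled to the mean library size by edgeR's TMM method), so each TKO library was below each DKO library, as labelled, and the fitted log2 fold change was -2.91 (adjusted p = 0.00359 from edgeR). Rb1 had 814, 746 and 682 normalized counts in the TKO and 617, 583 and 572 in the DKO retinae (a fitted log2 difference of 0.34 with edgeR's adjusted p = 0.0388), and Rbl1, the gene of p107, had between 13.5 and 27.5 in all 6. Both genes are altered in both groups, so their rows check no label. Counts over a whole gene, those of Hells included, do not show whether single exons were removed. The dividing-cell markers described below were lower in TKO retinae as well, so the Hells row alone does not settle the genotype. Xist and the Y-linked Ddx3y gave 1 male and 2 female TKO retinae and 2 male and 1 female DKO retinae, so sex was not balanced. In CPM (counts scaled with TMM to a common library size), 10 lens markers summed to 52.9 and 46.9 in TKO replicates 1 and 3. The sums were between 9.42 and 10.9 in the DKO retinae. TKO replicate 2 stood apart in these lens genes, with 299 CPM. Calls among the 10 genes that change without that retina are given with their values below. The labels do not say that the retinae of a group came from separate mice, and the p-values measure the spread between these retinae.

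All 10 genes had a lower fitted level in TKO than in DKO retinae, and 8 of them passed an adjusted p of 0.05 (edgeR's quasi-likelihood test with Benjamini-Hochberg adjustment over the 16904 genes). Of all genes tested, 9.20% were called lower and 7.35% higher by that rule. For 9 of the 10 genes, each TKO retina was below each DKO retina, which held for 20.6% of all genes tested. Hmgb2, Hmga2, Lmnb1 and Hmgb3 also met the study's further criteria, a log2 change of 1 or more in size and a base mean of 10 or more, which called 4.38% of all genes lower and 1.97% higher. The median log2 fold change was -0.73 over the 10 genes and -0.011 over all genes tested. Because the 10 genes were chosen with earlier results of these data known, these comparisons with all genes are descriptive only. Lmnb1, Hmgb2 and Hmgb3 were called in each of the 6 fits that left out 1 retina, and the number of the 10 genes called in those fits ran from 3 (leaving out TKO replicate 2, DKO replicate 1 or DKO replicate 2) to 8 (without DKO replicate 3), with 4 without TKO replicate 1. In bulk tissue, fewer cells of a type and less RNA per cell cannot be told apart.

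**Figure D1:**
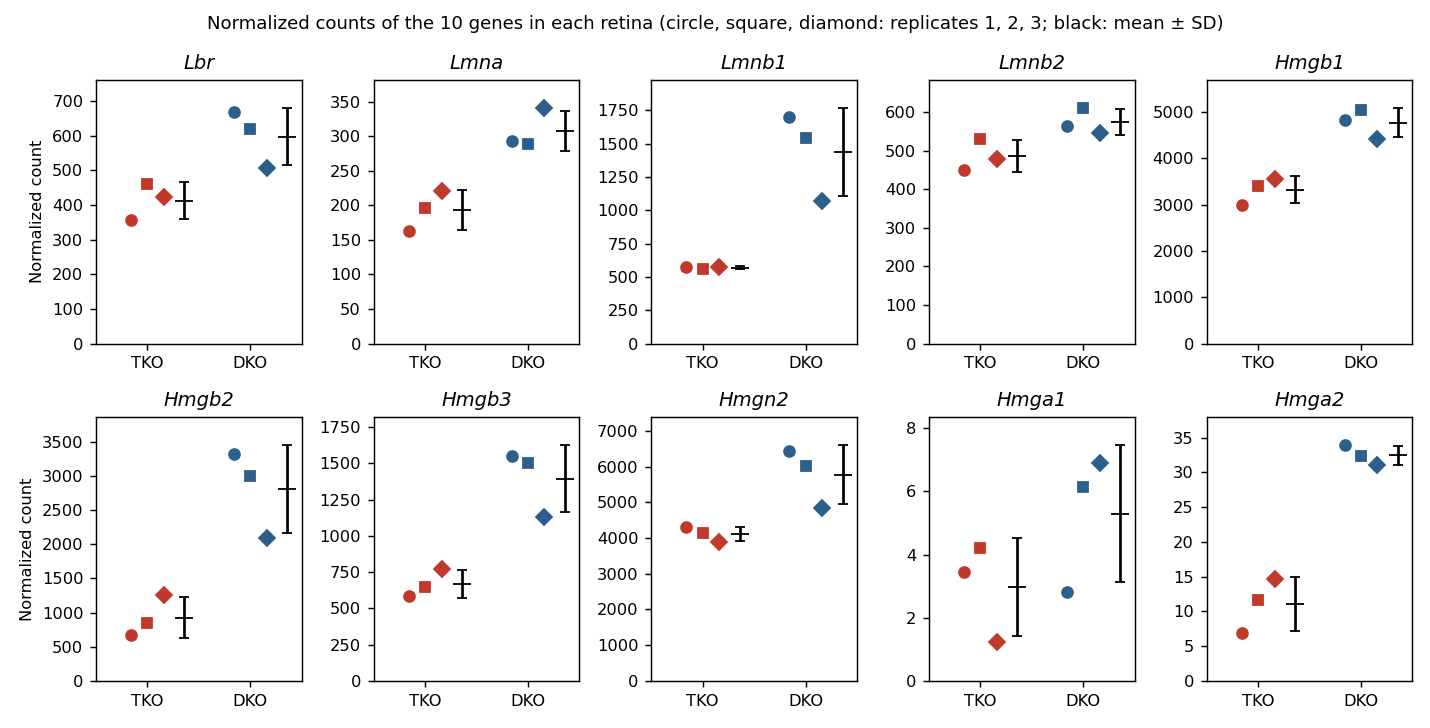
Normalized counts (vertical axes, from 0) of the 10 genes in the TKO (red) and DKO (blue) retinae, with 1 symbol per replicate and the mean ± SD in black. In 9 panels the groups do not overlap, and Lmnb1 lies between 562 and 578 in the TKO retinae.

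The upstream sequences of Lbr, Hmgb2 and Hmgb3 are shown because these are the genes in which a search found a cell cycle motif. RefSeq promoter windows (GRCm38.p6) matched 9 of the 10 symbols (not Lmnb1), and the 250 bases before the start of transcription were searched on both strands for the CCAAT box (CCAAT), for the CHR (TTTGAA), an element bound by MuvB complexes in many genes of the cell cycle, and for the E2F site in the forms TTTCCCGC, TTTGGCGC, TTTCGCGC and TTTGCCGC. The motifs were chosen after the sequences had been seen. Capitals mark the CCAAT boxes and the CHR.
Lbr: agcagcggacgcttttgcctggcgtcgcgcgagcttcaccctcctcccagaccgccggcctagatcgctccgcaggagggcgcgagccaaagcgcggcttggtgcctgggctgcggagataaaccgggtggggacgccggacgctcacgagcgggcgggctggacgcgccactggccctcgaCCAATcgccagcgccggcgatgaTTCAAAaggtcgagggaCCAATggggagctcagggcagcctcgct
Hmgb2: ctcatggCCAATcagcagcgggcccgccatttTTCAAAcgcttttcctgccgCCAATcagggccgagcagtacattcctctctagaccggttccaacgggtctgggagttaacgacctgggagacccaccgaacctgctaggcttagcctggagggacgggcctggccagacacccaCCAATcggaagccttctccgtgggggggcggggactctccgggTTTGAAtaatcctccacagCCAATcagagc
Hmgb3: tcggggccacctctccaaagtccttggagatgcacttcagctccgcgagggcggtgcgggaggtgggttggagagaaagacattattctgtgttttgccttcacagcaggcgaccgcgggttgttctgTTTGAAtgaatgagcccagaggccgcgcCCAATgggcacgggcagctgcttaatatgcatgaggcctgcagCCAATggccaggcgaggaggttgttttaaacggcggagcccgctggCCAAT
These windows are chr1:181842402-181842651 on the minus strand (Lbr), chr8:57511593-57511842 on the plus strand (Hmgb2) and chrX:71555667-71555916 on the plus strand (Hmgb3), and none overlapped an annotated exon of its own gene.

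The Hmgb2 window held 4 CCAAT boxes and 2 CHR matches, of which the nearer began 30 bases before the start. The Hmgb3 window held 3 CCAAT boxes and a CHR 122 bases before the start. The Lbr window held 2 CCAAT boxes and a CHR 45 bases before the start. That Lbr window lies inside the annotated span of Lbr, so its start is internal to the gene. The 9 genes had 13 windows, as some have more than 1 start. A CHR was found in 3 of these windows (23.1%) and in 16% of 32851 mouse promoter windows of the same length. With 13 windows this share was near the background, and the difference was not tested. A CCAAT box was found in 5 of them (38.5%), also in Hmgb1 and in the downstream of the Lmna windows, and in 33.8% of all windows, so its share was near the background. At least 2 CCAAT boxes together with a CHR, as in the 3 windows shown, were found in 1.53% of all windows. That pattern was set after these windows had been seen, so its share does not measure how unusual they are. None of the E2F forms was found in the 9 genes, and 1.86% of all windows held one, which says only that these letters are not in the window. A match of letters was not taken as a bound site.

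Among the lamins, Lmnb1 fell most. It had 571, 562 and 578 normalized counts in the TKO and 1702, 1544 and 1069 in the DKO retinae, given here and below in the order of the replicate numbers. The TKO retinae had a coefficient of variation of 1.40%, while DKO replicate 3 was well below the other DKO retinae, and the groups did not overlap. On the log2 scale the fitted change was -1.33 ± 0.159 (standard error), with edgeR's adjusted p = 0.00554, a level 2.52-fold higher in DKO retinae. With 1 retina left out it ran from -1.51 to -1.20, and edgeR's adjusted p stayed at or below 0.0375.

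Lmna, which encodes lamins A and C, had 163, 196 and 221 normalized counts in the TKO and 293, 289 and 341 in the DKO retinae. Both groups had their highest value in replicate 3, and DKO replicate 3, the lowest DKO retina for Lmnb1, was the highest for Lmna. On the log2 scale the fitted change was -0.67 ± 0.145 (standard error), with edgeR's adjusted p = 0.0186. It kept its direction with 1 retina left out, but leaving out TKO replicate 1 or 2 raised edgeR's adjusted p to 0.0531 or 0.0730, and leaving out DKO replicate 1 or 2 raised it to 0.0574 or 0.0624.

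Lmnb2, the other B-type lamin, had 450, 530 and 479 normalized counts in the TKO and 565, 610 and 546 in the DKO retinae. The groups came close, at 530 in TKO replicate 2 and 546 in DKO replicate 3, without overlapping. The fitted log2 difference was -0.24 (95% interval from -0.46 to -0.015), and its adjusted p of 0.130 from edgeR missed the threshold. Scaling by total counts only brought it to 0.0373, and under that scaling the median over all genes was -0.17 in place of -0.011.

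The lamins therefore stood in different proportions within a library. The ratio of Lmnb1 to Lmnb2 counts was 1.27, 1.06 and 1.21 in the TKO and 3.01, 2.53 and 1.96 in the DKO retinae, without overlap. The ratio of Lmnb2 to Lmna counts was 2.76, 2.71 and 2.17 in the TKO and 1.93, 2.11 and 1.60 in the DKO retinae, also without overlap and in the opposite direction. The ratio of Lmnb1 to Lmna overlapped, since DKO replicate 3 (3.13) was below TKO replicate 1 (3.51). These ratios were described and not tested.

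Lbr had 355, 460 and 423 normalized counts in the TKO and 667, 619 and 506 in the DKO retinae. DKO replicate 3 was the lowest of its group and still above each TKO retina. The fit gave Lbr a log2 change of -0.53 ± 0.137 (standard error), with edgeR's adjusted p = 0.0338, a level 1.45-fold higher in DKO retinae. For Lbr, leaving out TKO replicate 1 or 2 raised edgeR's adjusted p to 0.0993 or 0.0671, and leaving out DKO replicate 1 or 2 raised it to 0.111 or 0.115, and the direction held in these fits. Of the 8 called genes, Lbr alone lost its call when sex was a term in the fit (adjusted p = 0.0701 from edgeR).

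Hmgb2, which bends DNA through its HMG boxes, had 677, 840 and 1255 normalized counts in the TKO and 3324, 3005 and 2095 in the DKO retinae. TKO replicate 3 was the highest of its group and DKO replicate 3 the lowest of the other, and the groups did not overlap. On the log2 scale the fitted change was -1.60 ± 0.242 (standard error), with edgeR's adjusted p = 0.00752, a level 3.04-fold higher in DKO retinae.

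Hmgb3, which lies on the X chromosome, had 585, 644 and 772 normalized counts in the TKO and 1551, 1501 and 1128 in the DKO retinae. The 6 retinae fell in the same order as for Hmgb2. Its fitted log2 change was -1.06 ± 0.147 (standard error), with edgeR's adjusted p = 0.00691. With 1 retina left out, the adjusted p from edgeR was at most 0.0429 for Hmgb2 and 0.0393 for Hmgb3.

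Hmgb1, with the most counts of the HMGB genes, had 2995, 3405 and 3558 normalized counts in the TKO and 4830, 5048 and 4422 in the DKO retinae. The spread within a group was small, with coefficients of variation of 8.76% and 6.66%, and the groups did not overlap. The fit gave Hmgb1 a log2 change of -0.52 ± 0.0983 (standard error), with edgeR's adjusted p = 0.0124. Leaving out TKO replicate 2 raised the adjusted p to 0.0566, and leaving out DKO replicate 1 or 2 raised it to 0.0515 or 0.0595. The ratio of Hmgb2 to Hmgb1 counts was 0.226, 0.247 and 0.353 in the TKO and 0.688, 0.595 and 0.474 in the DKO retinae, so the smaller change of Hmgb1 was seen within each library and did not rest on the scaling.

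Hmgn2, a nucleosome-binding HMG protein, had the most counts of the 10 genes, with 4302, 4130 and 3895 normalized counts in the TKO and 6446, 6016 and 4846 in the DKO retinae. Replicate 3 was the lowest in both groups, and the groups did not overlap. The fit gave Hmgn2 a log2 change of -0.49 ± 0.118 (standard error), with edgeR's adjusted p = 0.0273. This call held only without DKO replicate 3 among the fits with 1 retina left out. The adjusted p was 0.0622, 0.0984 and 0.0546 without TKO replicates 1, 2 and 3, and 0.0925 and 0.103 without DKO replicates 1 and 2.

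The HMGA genes were near the limit of detection. Hmga2, an AT-hook protein of embryonic cells, had 6, 11 and 12 counts in the TKO and 36, 37 and 36 in the DKO libraries, as deposited. After scaling, these were 6.88, 11.6 and 14.7 normalized counts in the TKO and 33.9, 32.4 and 31.1 in the DKO retinae, so the DKO retinae were nearly alike and each TKO retina was below them. The fit gave Hmga2 a log2 change of -1.55 ± 0.333 (standard error), with edgeR's adjusted p = 0.0187. For Hmga2, leaving out TKO replicate 1 or 2 raised edgeR's adjusted p to 0.0527 or 0.0697, and leaving out DKO replicate 1 or 2 raised it to 0.0644 or 0.0705. Hmga1 had 3, 4 and 1 counts in the TKO and 3, 7 and 8 in the DKO libraries. The TKO to DKO ratio of its summed counts, 8 against 18, was 0.567 after scaling, with an exact 95% interval from 0.213 to 1.37 that covers counting error only. No difference in Hmga1 was detectable with so few counts.

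**Figure D2:**
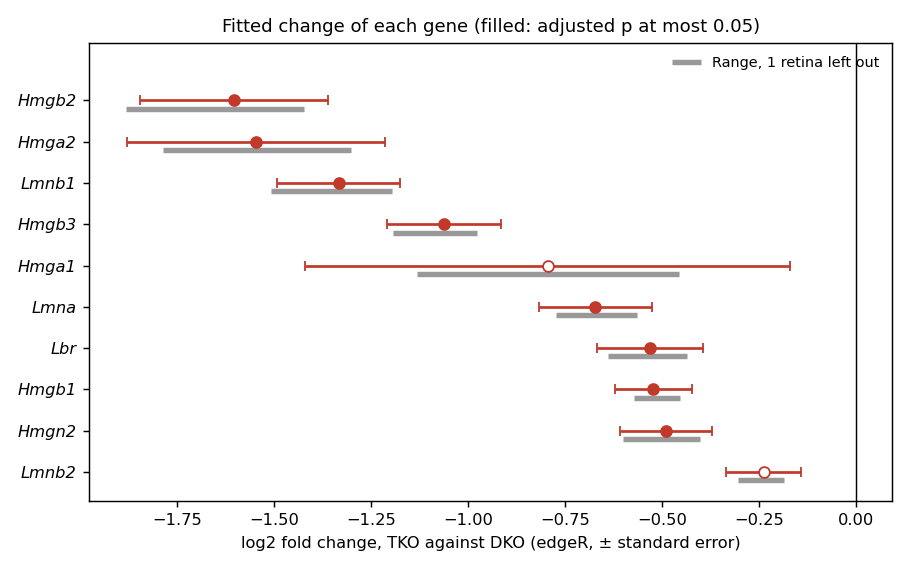
Fitted log2 fold change of TKO against DKO retinae (horizontal axis) for each gene, with its standard error, and in grey the range of the fits that each left out 1 retina. All values lie below 0, from -1.60 for Hmgb2 to -0.24 for Lmnb2.

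Some of these genes share sequence with others, and how reads that fit more than 1 gene were counted in this table is not given in the sources used here. Of the 100-base stretches of the longest annotated Hmga1 transcript, 59.9% also occur in 1 other annotated gene. The share was 33.1% for Hmgb1 (spread over 52 other annotated genes), 20.0% for Hmgb2, 18.3% for Hmgb3, 10.2% for Hmgn2, 10.0% for Lbr and 1.13% for Hmga2, and it was 0% for Lmna, Lmnb1 and Lmnb2. For Lbr the only other gene was Dnah14 and for Hmga2 it was 1700006J14Rik, the opposite-strand partners whose exon overlap is given below. The levels of Hmga1 and Hmgb1, with the largest shares, are uncertain to that extent. The rows of the copies Hmgb1-rs17 and Hmga2-ps1 had between 1 and 17 counts per library. Exons of Dnah14 cover 440 bases of Lbr on the opposite strand, and exons of 1700006J14Rik cover 140 bases of Hmga2 and of AI413582 102 bases of Hmga1. The strand setting of the counting is not given in the sources used here, so reads from these partners cannot be told apart.

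Levels were compared between genes per length, as normalized counts per kilobase of annotated exon. In DKO retinae the order was Hmgn2 (1885 ± 271, SD, n = 3), Hmgb1 (949 ± 63.2), Hmgb2 (935 ± 212), Hmgb3 (624 ± 104), Lmnb1 (486 ± 111), Lmnb2 (134 ± 7.74), Lbr (125 ± 17.4), Lmna (52.7 ± 4.98), Hmga2 (4.79 ± 0.207) and Hmga1 (2.49 ± 1.02). Hmgb1 and Hmgb2, and Lmnb2 and Lbr, were neighbours whose levels differed by less than their spread. This depends on the length used: per kilobase of the longest annotated transcript, Hmgb1 had 1680 ± 112 and Hmgb2 1068 ± 243 (SD, n = 3), further apart than their spread, while Lbr (170 ± 23.6) and Lmnb2 (162 ± 9.39) stayed within it with Lbr first.

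In TKO retinae the levels per kilobase were 1343 ± 66.7 for Hmgn2, 661 ± 57.9 for Hmgb1, 308 ± 99.4 for Hmgb2, 299 ± 42.8 for Hmgb3, 193 ± 2.71 for Lmnb1, 113 ± 9.56 for Lmnb2, 86.7 ± 11.1 for Lbr, 33.1 ± 4.99 for Lmna, 1.63 ± 0.583 for Hmga2 and 1.39 ± 0.729 for Hmga1 (SD, n = 3). The order was the same as in DKO retinae. Hmgb2 and Hmgb3, and Hmga2 and Hmga1, were neighbours within their spread. By the longest transcript, Hmgb3 (383 ± 54.8) came before Hmgb2 (352 ± 114), again within their spread.

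Markers of dividing cells moved with these genes. All 16 dividing-cell markers were called lower in TKO retinae, with a median log2 fold change of -2.59. Top2a, the topoisomerase of mitotic chromosomes and the marker with the most counts of the 16, had 132, 230 and 534 normalized counts in the TKO and 3944, 2684 and 1646 in the DKO retinae, a log2 change of -3.21 (edgeR's adjusted p = 0.00780). The CPM summed over the 16 markers were 72.0, 116 and 232 in TKO replicates 1, 2 and 3, and 1188, 884 and 551 in DKO replicates 1, 2 and 3. Hmgb2 and Hmgb3 had the same order of the 6 retinae as these sums. So did Hmga2 after scaling, but its DKO libraries held 36, 37 and 36 counts, which set no order among them. Lmnb1, Lbr and Hmgn2 had it among the DKO retinae only, and in the TKO retinae Lmnb1 stayed between 562 and 578 normalized counts and Hmgn2 ran in the opposite order. Lmna and Hmgb1 had it among the TKO retinae only. With 1 retina left out, between 11 (without TKO replicate 2) and 16 of the markers were called lower. The part of dividing cells in the changes of the 10 genes was not tested.

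**Figure D3:**
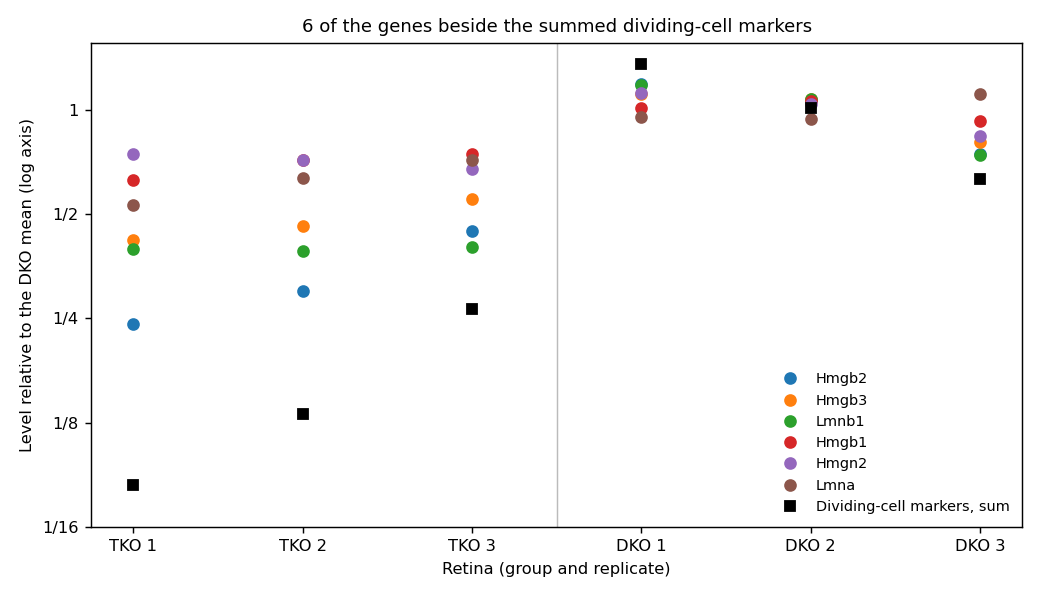
Levels of 6 of the genes (normalized counts, circles) and of the summed dividing-cell markers (CPM, black squares) in each retina, each divided by its DKO mean, on a log axis. The markers spread from 72.0 to 232 CPM over the TKO retinae, and Lmnb1 from 562 to 578 normalized counts.

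Markers of other cells moved as well. All 14 rod markers were called higher in TKO retinae (median log2 fold change 1.73), and their summed CPM were 66668, 57095 and 33361 in the TKO and 12207, 11865 and 21772 in the DKO retinae. Replicate 3 of each group was thus nearest to the other group in rod as in dividing-cell markers. Of 9 microglia markers, 6 were called lower and 0 higher, and the sums were 144, 186 and 257 CPM in the TKO and 383, 455 and 302 CPM in the DKO retinae. Without TKO replicate 2 and without DKO replicate 2, 0 of the 9 were called lower, with 1 without DKO replicate 1. Of 8 Muller glia markers, 5 were called higher and 0 lower, led in level by Glul, the glutamine synthetase, and their sums were 5601, 5470 and 5207 CPM in the TKO and 3746, 3572 and 3692 CPM in the DKO retinae. Hmgb1 had the same order of the 6 retinae as the microglia sums and the reverse of the order of the rod sums. None of these markers was at 0 in all libraries. Their part in the results for the 10 genes was not tested.

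Of the 10 amacrine and 8 ganglion cell markers, 0 were called in either direction by edgeR, and 2 amacrine markers were lower by DESeq2 and by edgeR with total counts only, without TKO replicate 3 or without DKO replicate 3. At an unadjusted p under 0.05, edgeR had 1 amacrine markers higher and 2 lower, and 1 ganglion cell markers higher and 0 lower. For cones 2 of 9, for bipolar cells 3 of 10, for horizontal cells 1 of 5, for endothelial cells and pericytes 1 of 9 and for pigment epithelium 1 of 8 markers were called higher and 0 lower by edgeR. DESeq2 called 1 horizontal cell marker lower, as did edgeR with total counts only, with no filter or a stricter one, or with robust dispersion estimates. Without TKO replicate 3, edgeR called 3 lower. At an unadjusted p under 0.05, 8 of the 9 cone and 5 of the 10 bipolar cell markers were higher, and 2 of the 5 horizontal cell markers were lower. The median log2 difference was 0.86 over the cone markers. Lens markers had 5 of 10 called higher. The 10 genes described here were not among these lists.

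Within 1 sex, the 10 genes again lay lower in TKO retinae. Between the male retinae (1 TKO, 2 DKO) the log2 difference was -1.51 for Lmnb1, -2.22 for Hmgb2, -1.38 for Hmgb3 and -0.84 for Lmna. Between the female retinae (2 TKO, 1 DKO) it was -0.91, -1.03, -0.68 and -0.71 for the same genes. The female difference was small for Lbr (-0.20) and Lmnb2 (-0.11). These values have no test, because a sex holds 1 retina of a group. With sex as a term in the fit, an alternative chosen after seeing the data, 7 of the 10 genes were called.

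The other genes of the nuclear envelope did not move as a block. Of 16 genes of the inner nuclear membrane and the LINC complex, which links the nucleus to the cytoskeleton, 2 were called lower, 2 higher and 12 in neither direction, with a median log2 fold change of 0.069. With libraries scaled by total counts only, 6 were lower, and without TKO replicate 3 it was 5, while 1 was lower without DKO replicate 1 or 2. Tmpo, which encodes the LAP2 proteins that bind lamins, fell from 2479 ± 517 normalized counts in DKO to 1287 ± 139 in TKO retinae (SD, n = 3), which is -0.95 ± 0.156 (standard error) in log2 units with edgeR's adjusted p = 0.00905. Syne3, which encodes the KASH protein nesprin-3, rose from 220 ± 71.5 to 673 ± 99.4, which is 1.61 ± 0.229 (standard error) in log2 units with edgeR's adjusted p = 0.00702. The other called genes were Banf1 (-0.53), a chromatin-bridging partner of LEM domain proteins, and Lemd3 (0.53), which are named here after their values were seen. Syne1, with the most counts of the list, had a log2 difference of 0.45 that was not called.

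Of 5 genes of prelamin maturation, Icmt, the methyltransferase that acts on the farnesylated lamin tail, was called higher, and 0 were lower. Icmt had 11198, 10801 and 7185 normalized counts in the TKO and 3569, 3668 and 5965 in the DKO retinae, without overlap and with replicate 3 of each group nearest to the other (log2 fold change 1.14, adjusted p = 0.0165 from edgeR). Rce1 and Fnta had differences of 0.41 and 0.12 that were not called. Of 27 nucleoporins, 5 were lower and 0 higher, with a median of -0.13, 8 with total counts only, and 0 without TKO replicate 2, DKO replicate 1 or DKO replicate 2, with 2 without TKO replicate 1. Nup62 (-0.60, adjusted p = 0.0134 from edgeR) and Nup93 (-0.52, adjusted p = 0.0188 from edgeR), of the central channel and the inner ring, had the smallest adjusted p. Ranbp2 and Tpr, the nucleoporins with the most counts, had differences of 0.45 and -0.010 that were not called.

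Of 9 genes, those for HP1 proteins and enzymes of histone H3 lysine 9 methylation and Trim28, 2 were lower and 1 higher. Cbx5, which encodes HP1 alpha, a binding partner of LBR, had a log2 change of -0.55 (edgeR's adjusted p = 0.0386) and Trim28 of -0.34 (adjusted p = 0.0467 from edgeR). Suv39h2, a histone methyltransferase, rose by 0.82 (adjusted p = 0.00755 from edgeR), with 438, 517 and 391 normalized counts in the TKO and 264, 242 and 256 in the DKO retinae. With sex as a term, or without TKO replicate 1 or 2 or DKO replicate 1 or 2, 0 genes of this list were lower by edgeR.

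Of 20 other genes with an HMG box or HMGN domain or in complex with one, 19 were tested, 3 were lower and 1 was higher, with a median of -0.071. With libraries scaled by total counts only, 6 were lower, and 5 with upper quartile scaling or a stricter filter on low counts. In the fits without TKO replicate 1 or 2, or without DKO replicate 1 or 2, 0 were lower. Ssrp1, an HMG-box subunit of the histone chaperone FACT, fell (-0.51, adjusted p = 0.0158 from edgeR), as did Tox (-0.49, adjusted p = 0.0235 from edgeR). Hmgn1, a close relative of Hmgn2, went the other way. It had 8712, 9144 and 6378 normalized counts in the TKO and 4611, 4402 and 6206 in the DKO retinae, where TKO replicate 3 and DKO replicate 3 nearly met, and its log2 fold change was 0.67 (standard error 0.176, adjusted p = 0.0360 from edgeR). The ratio of Hmgn2 to Hmgn1 counts was 0.494, 0.452 and 0.611 in the TKO and 1.40, 1.37 and 0.781 in the DKO retinae.

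Linker histones compete with HMG proteins for nucleosomes, and of 7 genes 5 were tested, 2 being lower and 1 higher. Without TKO replicate 2, DKO replicate 1 or DKO replicate 2, 0 were lower. H1f0, the histone H1.0, fell from 2314 ± 339 to 1530 ± 67.5 normalized counts (SD, n = 3, log2 fold change -0.60, adjusted p = 0.0128 from edgeR). Hist1h1c rose from 57.0 ± 10.0 to 153 ± 49.1 (1.43, adjusted p = 0.0129 from edgeR). Transcripts of clustered histone genes mostly lack a poly(A) tail, and the libraries were made from mRNA.

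**Figure D4:**
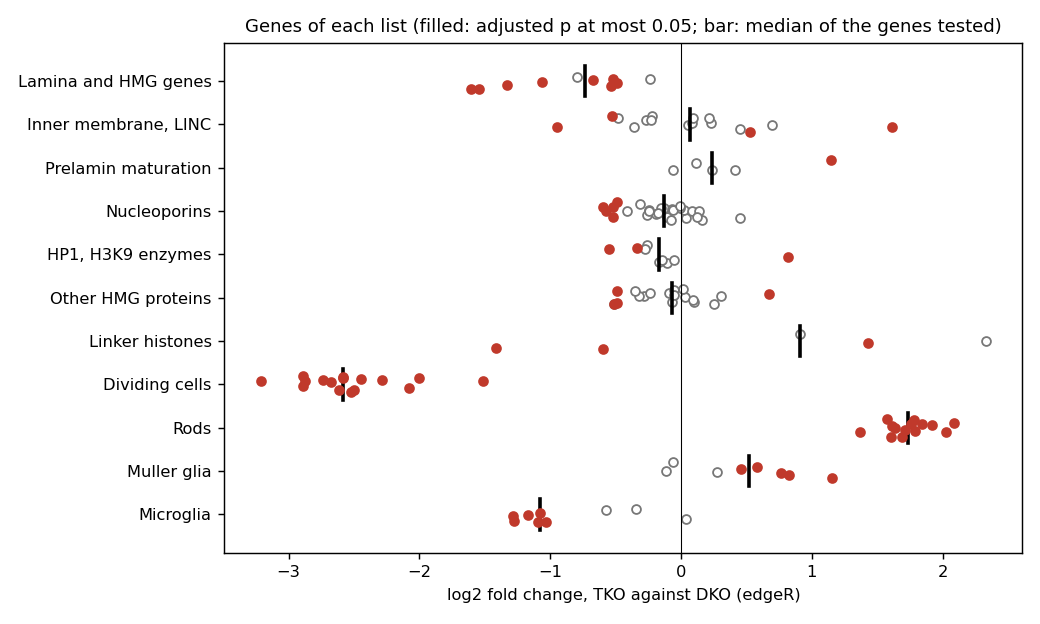
Fitted log2 fold change (horizontal axis) of each tested gene in 11 lists, filled where the adjusted p from edgeR was at most 0.05, with the median of the list as a bar. The 10 lamina and HMG genes lie below 0 with a median of -0.73. The medians are -2.59 for the dividing-cell, -1.08 for the microglia and 1.73 for the rod markers. For the other lists of the nuclear envelope they run from -0.13 to 0.23.

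Genes with patterns like those of the 10, save Hmga1, were found by the root mean square difference of log2 CPM over the 6 retinae. Values were centred on each gene's mean, and 11681 genes with a mean of at least 100 normalized counts were compared. Nearest to Lmnb1 were Rrm1, Kif18a and Foxj1 (differences of 0.0701, 0.0715 and 0.0771). Nearest to Hmgb2 were Csrp2, Mxd3 and Wdhd1 (0.0618, 0.0724 and 0.0892), and to Hmgb3 Cdk4, Chaf1a and Tor3a (0.0298, 0.0442 and 0.0454). Hmgb1 was nearest to Sephs1, Larp7 and Banf1 (0.0302, 0.0332 and 0.0353), and Hmgn2 to Smarcad1, Reep3 and Rbpj (0.0434, 0.0468 and 0.0512). Lbr was nearest to Bcl11a, Snrpb2 and Snn (0.0566, 0.0586 and 0.0604), and Lmna to Trim62, Sel1l3 and Msn (0.0434, 0.0603 and 0.0671). Lmnb2 was nearest to Ccdc43, Pabpc1 and Acat1 (0.0253, 0.0262 and 0.0327), and Hmga2 to Ube2l6, Arpc1b and Ccnf (0.0927, 0.104 and 0.132). No member of the 10 was among the nearest genes of another, and Hmga1 and Hmga2, with means below 100, could not be. These likenesses rest on 6 retinae in 2 groups and carry no test.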

How the data were processed

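The deposited table held raw counts per gene symbol for the 6 retinae, with no normalization by the authors. The study's methods name STAR and HTSeq, and the submitters' processing notes name TopHat2, featureCounts and DESeq2; which made the table is not given in the sources used here. Up to 3 alignments per read were allowed in the STAR settings, which bears on genes with near copies. Counts were tested with edgeR 4.0.16 in R 4.3.3 (TMM scaling, quasi-likelihood F test, Benjamini-Hochberg adjustment over 16904 genes with a summed count of at least 10), TKO against DKO with no covariate. DESeq2 1.42.0, other scalings and filters, a replicate block and leaving out each retina were alternatives, and a sex term was added after seeing the data. The 10 genes and the gene lists were chosen with earlier results of these data known. The text names those 10, Hells, Rb1 and Rbl1, up to 4 genes of each list (the 2 smallest adjusted p and the 2 highest levels), the 3 nearest genes of each and their copies, save where it says otherwise. Exon lengths came from GENCODE M21 (GRCm38), which held 22750 of the 24062 symbols. Libraries held 10343907 to 14203098 counts, so genes with few counts, such as Hmga1, are imprecise, and the interval of its ratio covers counting error only. Some genes that this rule names are not reported here.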

Additional observations from a re-analysis of the deposited data

How the results depend on the processing

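All 10 genes kept a fitted level below that in DKO retinae under each alternative that gave a value; Hmga1 had none with filterByExpr or at least 10 counts in every library, and Hmga2 none with the latter. The edgeR fit called 8 of the 10 genes, 4 by the study's criteria, 2799 of all genes and 20 in the 6 lists of envelope and chromatin genes. With 1 retina left out, these were 3 to 8, 2 to 4, 647 to 3590 and 3 to 27. With the threshold on the adjusted p at 0.01 there were 3 of the 10 genes, 561 of all genes and 3 in the lists, and at 0.1 there were 4346 of all genes and 33 in the lists. With total counts only, 778 genes were called higher and 2610 lower, against 1243 and 1556 with TMM scaling, and 9 of the 10 genes were called. With the replicate number as a block, 1 of the 10 genes (Lmnb1, adjusted p = 0.0439 from edgeR), 1 by the study's criteria, 106 of all genes and 0 in the lists were called, and 0 of the 16 dividing-cell and 0 of the 9 microglia markers were lower. The deviations of same-numbered retinae had correlations of 0.065, -0.053 and -0.23. Those of differently numbered retinae ran from -0.25 to 0.25. With 3 retinae per group these values cannot show whether same-numbered retinae share more than a number. The cause of these shifts was not tested. Few counts limit the estimates for Hmga1 and Hmga2, and why Hmga1 had few was not tested.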
